A study of Homo sapiens with 12 samples.

Results

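The polysomal and the cytoplasmic RNA of wild-type HEK293T cells, a human embryonic kidney line, were compared at the 3' ends of polyadenylated transcripts. Each RNA was sequenced once by 3'READS+, which reads the last stretch before the poly(A) tail, so that 1 count stands for 1 sequenced 3' end whatever the length of the transcript. A 3' end (a poly(A) site) was taken into the comparison when it had at least 50 reads in both wild-type libraries. That left 4978 of the 189010 sites of the fractionation table, of which 4918 were nuclear (chromosomes 1 to 22 and X), 42 and 17 came from the plus and minus strands of mitochondrial DNA, and 1 from an unlocalized contig. The study holds 12 libraries, and the 4 used here are the cytoplasm and the polysomes of the wild-type cells and of a STAU1 knockout.

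The wild-type cells are the isogenic control C9, a HEK293T clone kept beside the STAU1-KO clone C8, which was made with a double-nicking Cas9. The labels name no transfected construct or drug for these 4 libraries, and the cells were grown in serum-containing medium. Each genotype is therefore 1 clone and each fraction 1 library, so no comparison below carries a test or a replicate error. Intervals in the text are exact 95% Clopper-Pearson intervals on the share of a site's reads that came from polysomes, turned into log2 ratios, and they cover counting error only. Cytoplasm was separated from nuclei with a commercial extraction kit, while the sucrose fractions pooled as polysomes and the protection of ribosomes during lysis are not given in the sources used here.

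A polysome is an mRNA carrying several ribosomes at once, and its sedimentation through sucrose separates it from free mRNA and from single ribosomes. An mRNA that is rich in polysomes relative to the whole cytoplasm has more of its copies in that heavy fraction, whereas one that is poor has more copies free, held in other particles, or with few ribosomes. Many genes end their transcripts at more than 1 poly(A) site, which changes the 3' untranslated region and leaves the protein the same. Transcripts of the mitochondrial genome are polyadenylated too, but they are translated by mitochondrial ribosomes inside the organelle and not by the cytosolic polysomes.

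Gene names are given only where a site fell at an hg19 gene end that could be placed with certainty, and 306 nuclear sites were named in this way. All 306 symbols lay on the same chromosome in the RefSeq gene table of GRCh38, and none of 272 neighbouring pairs stood in another order there. A ratio in the text is log2 of polysome over cytoplasm after TMM scaling over the 4 fraction libraries, a scaling that lets most sites centre near 0. "Rich" means a log2 ratio of 1 or more (at least 2-fold higher in polysomes) and "poor" a log2 ratio of -1 or less.

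The cytoplasmic library held 2904902 reads over 78834 sites and the polysomal library 2799226 reads over 81877 sites. The sites compared took 86.9% of the cytoplasmic and 85.8% of the polysomal reads. Mitochondrial sites took 18.3% of the cytoplasmic reads and 5.26% of the polysomal reads. With library totals in place of TMM every ratio would be 0.26 higher, and a direction close to 0 depends on that choice. At the STAU1 3' end on chromosome 20 (minus strand, 47729878) the reads were 148 in cytoplasm and 110 in polysomes of the wild type, and 75 and 51 in the knockout; a tag at the 3' end does not read the nicked region, so it is no check of the knockout.

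Nuclear 3' ends centred near a ratio of 0, where TMM scaling places most sites. The median log2 ratio of the 4918 nuclear sites was -0.022, with an order-statistic 95% interval over sites of -0.038 to -0.0034, and the middle 50% of sites lay between -0.37 and 0.33. The ratios ranged from -3.11 to 2.26 with an SD of 0.57 over sites. Polysome-rich sites numbered 121 of 4918, or 2.46%, and polysome-poor sites numbered 245, or 4.98%. For all 121 rich and all 245 poor sites the counting interval lay on its side of 0. The minimum of 50 reads and the 2-fold limit together already ensure this, so it is no added support. The median width of that interval over nuclear sites was 0.69, so that a single site with few reads was not told apart from 0 unless its ratio was large. The tail of poor sites was longer than the tail of rich sites under TMM, but with library totals 349 sites were rich and 131 poor.

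**Figure D1:**
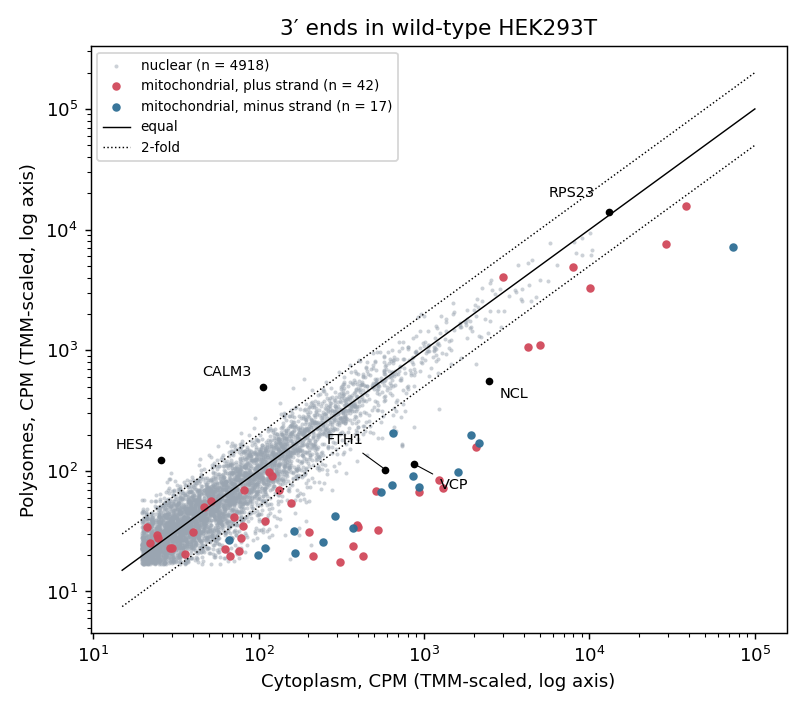
TMM-scaled CPM (scaled reads, as a share of the library) in polysomes (vertical, log axis) against cytoplasm (horizontal, log axis) of wild-type HEK293T for the nuclear and mitochondrial sites; the solid line marks equality and the dotted lines 2-fold. Nuclear sites lie along the line with a median log2 ratio of -0.022, mitochondrial sites mostly lie below it, and 6 named sites are marked in black.

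The most polysome-rich nuclear end was that of HES4, a Hes-family transcriptional repressor, on chromosome 1 (minus strand, 934343). It had 66 reads in cytoplasm and 365 in polysomes, a log2 ratio of 2.26 (1.88 to 2.66). The knockout libraries held 49 and 202 reads there, a ratio of 1.74, so the polysomal library was the higher of the 2 in both genotypes. CALM3, a gene for the calcium sensor calmodulin, followed at 19:+:47114038 with 270 reads in cytoplasm and 1465 in polysomes. Its ratio was 2.23 (2.04 to 2.42), and 577 and 2029 reads in the knockout gave 1.51. The next site had a ratio of 1.72, and its interval overlapped those of both HES4 and CALM3.

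EIF1, which helps the initiating ribosome to select the start codon, had 483 cytoplasmic and 1692 polysomal reads at 17:+:39847893 and a ratio of 1.60 (1.45 to 1.75). In the knockout EIF1 had 887 and 1712 reads and a ratio of 0.64. COX7B, a subunit of cytochrome c oxidase, had 412 and 1422 reads at X:+:77160881, a ratio of 1.58 (1.42 to 1.74), with 447 and 1181 reads in the knockout. EIF1, CALM3 and COX7B carried the most polysomal reads of the 15 highest. TMEM258, a subunit of the oligosaccharyltransferase, had 244 and 808 reads at 11:-:61556603 and a ratio of 1.52 (1.31 to 1.73), against 418 and 628 reads and 0.28 in the knockout.

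PYCR1, a mitochondrial enzyme of proline synthesis, had 344 and 1078 reads at 17:-:79890269 and a ratio of 1.44 (1.26 to 1.62). AMD1, the decarboxylase that makes the aminopropyl donor for polyamines, had 128 and 396 reads at 6:+:111216913 and a ratio of 1.42 (1.13 to 1.72). Both also lay above 0 in the knockout, PYCR1 at 0.96 and AMD1 at 1.01. SRSF9, a splicing regulator of the SR family, had 71 and 238 reads at 12:-:120899477 and a ratio of 1.54. GOLT1B, a Golgi transport protein, had 113 and 372 reads at 12:+:21671091 and a ratio of 1.51. BCL7C, a subunit of BAF chromatin remodellers, had 145 and 476 reads at 16:-:30899118, likewise a ratio of 1.51. These 3 had knockout ratios of 1.20, 0.53 and 1.06 in that order.

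The other 5 of the 15 highest rested on 50 to 75 cytoplasmic reads. CBX3, a heterochromatin protein of the HP1 family, had 73 and 252 reads at 7:+:26252974 and a ratio of 1.58. MIIP had 74 and 254 reads at 1:+:12092095 and a ratio of 1.57. SMC5, a core subunit of the SMC5/6 complex, had 50 and 169 reads at 9:+:72969785, just at the minimum, and a ratio of 1.55 (1.09 to 2.03). PLEKHA1, a phosphoinositide-binding adaptor, had 52 and 170 reads at 10:+:124191860 and a ratio of 1.50. The site 10:+:98724188, which is not named here, had 75 and 285 reads and a ratio of 1.72 (1.35 to 2.11). In the knockout all 15 ratios were above 0, from 0.19 at SMC5 to 1.74 at HES4. The wild-type values chose the sites, so their being higher there is no result.

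The most polysome-poor nuclear end was FBN2, which encodes the extracellular matrix protein fibrillin 2, at 5:-:127593602. It had 532 reads in cytoplasm and 71 in polysomes, a log2 ratio of -3.11 (-3.49 to -2.75), and 420 and 86 reads in the knockout, a ratio of -2.59. DDB1, the adaptor of CUL4 ubiquitin ligases, had 393 and 55 reads at 11:-:61066926 and a ratio of -3.04. VCP, an AAA ATPase that extracts ubiquitylated proteins, had 2225 and 335 reads at 9:-:35056561 and a ratio of -2.94 (-3.11 to -2.77). The intervals of these 3 ends overlap. VCP was the best covered of them, and its knockout value was -2.80 from 2704 and 480 reads.

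NCL, the nucleolar RNA-binding protein nucleolin, was the most abundant of the 15 lowest with 6321 cytoplasmic and 1627 polysomal reads at 2:-:232319460. Its ratio was -2.17 (-2.25 to -2.09), and 6657 and 2202 reads in the knockout gave -1.90. MTHFD1, a trifunctional enzyme of folate metabolism, had 1874 and 480 reads at 14:+:64926722 and a ratio of -2.17 (-2.32 to -2.03). An unnamed site at 15:-:75867352 had 1866 and 473 reads and a ratio of -2.19 (-2.34 to -2.04). In the knockout that site had 3768 and 688 reads and a ratio of -2.76, the only 1 of the 15 lowest sites with a knockout interval wholly below its wild-type interval.

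FASN, the fatty acid synthase, had 450 and 87 reads at 17:-:80036215 and a ratio of -2.58 (-2.93 to -2.24). CLTC, the clathrin heavy chain of coated vesicles, had 445 and 98 reads at 17:+:57772128 and a ratio of -2.39. SUPT16H, a subunit of the histone chaperone FACT, had 496 and 113 reads at 14:-:21819638 and a ratio of -2.34. All 3 were 4-fold or more lower in polysomes in the knockout too, with ratios of -2.22, -2.16 and -2.34. DDX24, a DEAD-box RNA helicase, had 292 and 67 reads at 14:-:94517269 and a ratio of -2.33. PARP1, which adds ADP-ribose chains at DNA breaks, had 369 and 86 reads at 1:-:226548393 and a ratio of -2.31. PRPF6, a protein of the spliceosomal tri-snRNP, had 296 and 84 reads at 20:+:62664451 and a ratio of -2.02. TCOF1, the nucleolar protein treacle, had 308 and 86 reads at 5:+:149779856 and a ratio of -2.05 (-2.41 to -1.70). In the knockout TCOF1 had 152 and 101 reads and a ratio of -0.89, the value nearest to 0 among the 15. All 15 lay below 0 in the knockout, between -2.80 and -0.89.

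**Figure D2:**
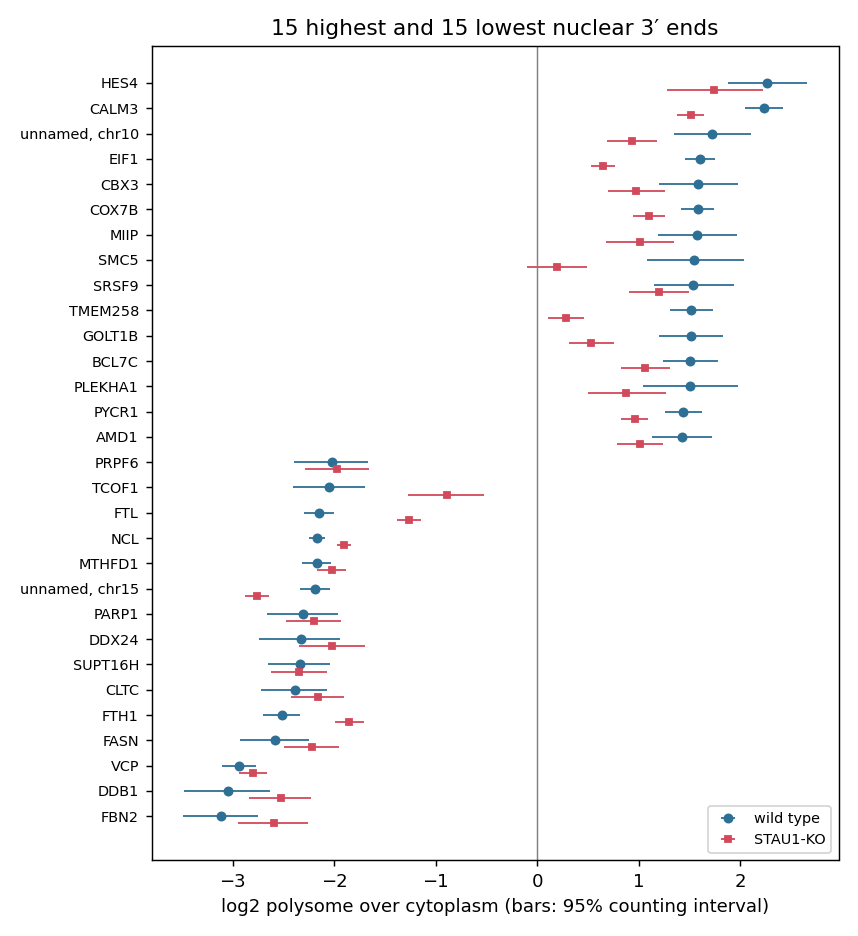
Log2 ratio of polysome over cytoplasm (horizontal) at the 15 highest and 15 lowest nuclear sites of the wild type, with 95% counting intervals as bars; circles are the wild type and squares the STAU1-KO. The wild-type values chose the sites; the knockout values lie on the same side of 0 at all 30, from 0.19 to 1.74 and from -2.80 to -0.89.

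Both ferritin chains were among the 15 poorest ends. Ferritin is the iron-storage shell of the cell, and its mRNAs are the textbook case of an iron-responsive element, a hairpin near the 5' end of the mRNA that iron regulatory proteins bind to keep ribosomes off when iron is low. FTH1, the heavy chain, had 1490 cytoplasmic and 301 polysomal reads at 11:-:61732035, a log2 ratio of -2.52 (-2.70 to -2.34). FTL, the light chain, had 1880 and 489 reads at 19:+:49470135, a ratio of -2.15 (-2.30 to -2.01). In the knockout FTH1 had 1557 and 533 reads and a ratio of -1.85, and FTL had 1676 and 863 reads and a ratio of -1.26. All 4 polysomal counts were below their cytoplasmic counts. Iron supply and protein binding were not measured.

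The element is shown for FTL because it is the sequence for which this mRNA is known. The last 30 bases of the RefSeq window around its start (GRCh38.p14, plus strand, chr19:48965329-48965358) are printed, with the letters that match CNNNNNCAGTG, the bulged C and the loop of the element, in capitals.

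FTL: gtctgtctcttgCTTCAACAGTGtttggac

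The match began 33 bases after the first base of the annotated transcript, counting that base as 1. The same letters occurred in the first 50 bases after the start of 599 of 35116 windows on the sense strand (1.71%), and of 1171 windows on either strand (3.33%), so a match alone is not particular to ferritin. TFRC, the transferrin receptor, whose iron-responsive elements lie in its 3' untranslated region, had 163 and 169 reads at 3:-:195776156 and a ratio of -0.16 (-0.47 to 0.16).

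The most abundant nuclear ends leaned towards low ratios without passing the 2-fold limit. Among the 15 with most cytoplasmic reads none was rich or poor, and their ratios ran from -0.80 to 0.41. Most of them lay below the lower quartile of all nuclear sites, -0.366, and only RPS27A lay above the upper quartile, 0.331. They were chosen by cytoplasmic reads alone, which are also the denominator of the ratio. RPS23, a protein of the small ribosomal subunit, was the most abundant with 33443 and 41400 reads at 5:-:81571885 and a ratio of 0.10 (0.079 to 0.12). RPL8, of the large subunit, had 26314 and 19814 reads and a ratio of -0.62. NME2, a nucleoside diphosphate kinase, had 26085 and 18217 reads at 17:+:49249104 and a ratio of -0.73. RPS6 (-0.10), the polyubiquitin gene UBB (-0.08) and RPS28 (-0.03) stood within 0.1 of 0. EEF2, the elongation factor that moves the ribosome along, had 22924 and 18243 reads at 19:-:3976055 and a ratio of -0.54.

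RPS27A, which encodes ubiquitin fused to a ribosomal protein, was the highest of the 15 at 0.41 (0.38 to 0.44) from 14762 and 22615 reads. RPL39 followed at 0.31 from 11487 and 16435 reads. The lowest were RPL13 at -0.80 from 11378 and 7562 reads and an unnamed site at 6:+:43278140 at -0.79 from 12175 and 8121 reads. RPS16 (-0.37), RPS4X (-0.35), the glycolytic enzyme ENO1 (-0.40) and the cytoskeletal actin ACTG1 (-0.57) lay between. At these depths the counting intervals are narrow, for RPL13 from -0.84 to -0.76, while no replicate library measures the rest of the error.

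Genes of 17 lists were then read at 1 site each, the site with most reads near a known hg19 gene end. Each list is described by its median beside the nuclear median of -0.022. Where a gene has more than 1 poly(A) site, the site read need not be its main one. The lists name the ribosome, translation factors, RNA-binding proteins, metabolism, folding, the cytoskeleton, chromatin, replication, stress-responsive mRNAs and noncoding RNAs. Over all nuclear sites 2.46% were rich and 4.98% poor, and the counts in each list are to be read against these shares. Multigene families and genes with processed pseudogenes, the ribosomal proteins and tubulins above all, are uncertain where reads could be shared between copies.

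Large-subunit ribosomal proteins had 39 measured ends of 46 listed, 1 rich and 1 poor, with a median of -0.10 (order-statistic interval -0.31 to 0.12). RPL22 was the highest at 1.09 (0.62 to 1.58) from 53 and 130 reads, followed by RPL5 at 0.72 from 3796 and 7237 reads. The end read for RPL22 is distal to a far better covered site on the same strand, which is not named here. That site, not counted in the list, had fewer polysomal than cytoplasmic reads, so the rich call holds for the distal end only. The lowest were RPL12 at -1.11 from 285 and 153 reads and RPL15 at -0.90 from 7410 and 4573 reads. RPL5 and RPL15 are both well counted, and their counting intervals, 0.67 to 0.78 and -0.96 to -0.85, lie far apart. Small-subunit proteins had 26 measured ends of 31, none rich and 2 poor, with a median of 0.099 (-0.35 to 0.30). RPS14 (0.69, from 833 and 1554 reads) and FAU (0.65, from 1891 and 3425 reads) were the highest. RPS2 (-1.38, from 1860 and 827 reads) and RPSA (-1.15, from 181 and 94 reads) were the lowest. Proteins that enter the same particle thus spanned 2.07 log2 units in the small subunit.

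Translation factors had a median of -0.54 (-0.84 to 0.14) over 17 measured ends of 22, with 1 rich and 2 poor. The rich end was EIF1 (1.60, described above), followed by EIF4A2, a helicase of cap-dependent initiation, at 0.84 from 77 and 159 reads. PABPC1, the cytoplasmic poly(A)-binding protein, was the lowest at -1.63 (-1.90 to -1.38) from 454 and 169 reads. EIF3D, a subunit of the initiation factor eIF3, was next at -1.17 (-1.43 to -0.92) from 389 and 199 reads. In the knockout PABPC1 had 364 and 179 reads and EIF3D had 436 and 331 reads, so both were lower in polysomes there as well. Of the 17 factors 6 were above the nuclear median and 11 at or below it.

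RNA-binding and splicing proteins had 21 measured ends of 23, of which 6 were poor and 1 was rich. Their median was -0.13 (-1.19 to 0.046). NCL (-2.17) and HNRNPM (-1.93, from 3147 and 955 reads), a protein that binds pre-mRNA, were the lowest. The other 4 poor ends ran from -1.41 to -1.19 and belonged to HNRNPA2B1, HNRNPU, DDX5 and NONO, the first pair of which were added to the list after values were seen. HNRNPH1 was the only rich end at 1.01 (0.74 to 1.27) from 169 and 392 reads, and SERBP1, which binds mRNA and ribosomes, followed at 0.45 from 230 and 364 reads. SERBP1 lay below 0 in the knockout, at -0.35 from 420 and 408 reads.

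Genes of DNA replication and the cell cycle had 12 measured ends of 17, none rich and 2 poor, and a median of -0.46 (-0.98 to -0.036). The poor ends were subunits of the MCM helicase, MCM2 at -1.99 (-2.46 to -1.54) from 182 and 53 reads and MCM5 at -1.70 (-1.88 to -1.53) from 997 and 354 reads. MCM4, MCM7 and MCM3 lay between -0.98 and -0.89, and MCM6 at -0.036. All 6 MCM ends were below the nuclear median, MCM6 only just, with an interval of -0.36 to 0.29. The ends of MCM4 and MCM6 were added to the list after values were seen. The knockout ratios of MCM2 and MCM5 were -2.06 and -1.71. TYMS, which makes thymidylate, was the highest of the list at 0.72 from 157 and 298 reads, followed by CDK1, the mitotic kinase, at 0.55 from 484 and 820 reads.

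Chromatin proteins were on the other side, with a median of 0.33 (-0.40 to 0.86) over 8 measured ends of 12 and 7 of them above the nuclear median, though none was rich or poor. HMGB1, an abundant DNA-bending protein, was the highest at 0.86 (0.74 to 0.98) from 836 and 1756 reads, and DEK followed at 0.72 from 179 and 341 reads. SET, a histone chaperone, was the lowest at -0.40 from 313 and 274 reads, and H2AX, a histone variant with a polyadenylated mRNA, was next at 0.034 from 2199 and 2601 reads.

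Nuclear-encoded subunits of the respiratory chain and ATP synthase had 18 measured ends of 19, none rich or poor, and a median of 0.26 (-0.12 to 0.46). COX8A (0.89, from 292 and 625 reads) and COX6C (0.65, from 1295 and 2339 reads), both subunits of cytochrome c oxidase, were the highest. The catalytic-core subunit ATP5F1A (-0.82, from 1756 and 1147 reads) and NDUFA4 (-0.82, from 352 and 230 reads; COXFA4 in the RefSeq table) were the lowest. Of the 18 ends 12 lay above the nuclear median. COX7B, the rich end named above, was not on the list.

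Glycolytic enzymes had 12 measured ends of 13, none rich and 2 poor, and a median of -0.32 (-0.53 to 0.21). PGK1 (-1.23, from 820 and 405 reads) and PFKL (-1.20, from 255 and 128 reads) were the poor ones, and TPI1 (0.40, from 3822 and 5840 reads) and LDHA (0.32, from 394 and 570 reads) the highest. GPI was read at its distal end (0.21, from 96 and 128 reads). Its proximal end, not counted in the list, had 1415 and 552 reads and a ratio of -1.57. Of the lipid and sterol genes 4 of 5 were measured, 2 of them poor, and the median was -0.96. FASN (-2.58) and ACLY, which supplies the acetyl-CoA for fatty acid synthesis, were the lowest, ACLY at -1.59 (-1.72 to -1.45) from 1617 and 621 reads. The desaturase SCD at 0.20 and INSIG1, which retains the sterol-sensing machinery in the endoplasmic reticulum, at -0.32 were the highest. FASN and ACLY also lay at -2.22 and -1.72 in the knockout.

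Genes of folding and translocation in the endoplasmic reticulum had 19 measured ends of 20, none rich or poor, and a median of -0.13 (-0.60 to 0.28). PPIB (0.99, from 108 and 247 reads) and KDELR2 (0.48, from 1799 and 2906 reads) were the highest, and CANX (-0.80, from 2718 and 1807 reads) and RPN2 (-0.78, from 5650 and 3810 reads) the lowest. Cytosolic and mitochondrial chaperones had 14 measured ends of 19, none rich or poor, and a median of 0.018 (-0.75 to 0.58). PPIA (0.88, from 81 and 172 reads) and HSPE1 (0.67, from 811 and 1488 reads) were the highest, CCT5 (-0.94, from 747 and 449 reads) and DNAJA1 (-0.81, from 261 and 172 reads) the lowest. Subunits of the CCT ring, which work together in 1 ring, ran from -0.94 for CCT5 to 0.30 for CCT6A.

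Cytoskeletal genes had 18 measured ends of 20, none rich and 4 poor, and a median of -0.24 (-0.70 to 0.15). MYH9, the heavy chain of non-muscle myosin, was the lowest at -1.80 (-2.19 to -1.42) from 235 and 78 reads, followed by the intermediate filament protein VIM at -1.23 from 618 and 305 reads. The other 2 poor ends were TUBB at -1.07 and FLNA at -1.05. The small GTPases RHOA (0.74, from 989 and 1902 reads) and CDC42 (0.60, from 305 and 535 reads) were the highest. A mixed list of other abundant or large genes had 21 measured ends of 29, 1 rich and 2 poor, and a median of 0.048. TXN, thioredoxin, was its rich end at 1.11 (0.98 to 1.24) from 649 and 1617 reads, followed by the adenine nucleotide carrier SLC25A5 at 0.86. HUWE1, a ubiquitin ligase, and APP were the poor ones at -1.30 and -1.29.

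A short list of calmodulin and ubiquitin genes had 3 measured ends of 3, with 1 rich, none poor and a median of 0.89. CALM3 stood at 2.23 and CALM2, which encodes the same protein from another mRNA, at 0.89 (0.56 to 1.23) from 113 and 242 reads. Both lay above 0 in the wild type, and their intervals did not overlap. In the knockout CALM3 stood at 1.51 and CALM2 at 0.10 from 212 and 280 reads. UBB, a polyubiquitin gene, stood at -0.079 from 23084 and 25238 reads.

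mRNAs known for translational regulation or stress response had 18 measured ends of 22, 1 rich and 3 poor, and a median of -0.24 (-0.77 to 0.37). FTH1 and FTL were the lowest. MYC, the third poor one, stood at -1.53 (-1.96 to -1.10) from 162 and 65 reads, and at -0.48 from 88 and 78 reads in the knockout. AMD1 (1.42) and SAT1 (0.87, from 52 and 110 reads), which make and degrade polyamines, were the highest, and OAZ1, the antizyme that targets ornithine decarboxylase, stood at 0.43 from 829 and 1293 reads. ODC1, ornithine decarboxylase itself, was at -0.32 from 324 and 299 reads. ATF4, whose upstream reading frames hold back its translation in unstressed cells, was at -0.51 (-0.57 to -0.46) from 6393 and 5177 reads.

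**Figure D3:**
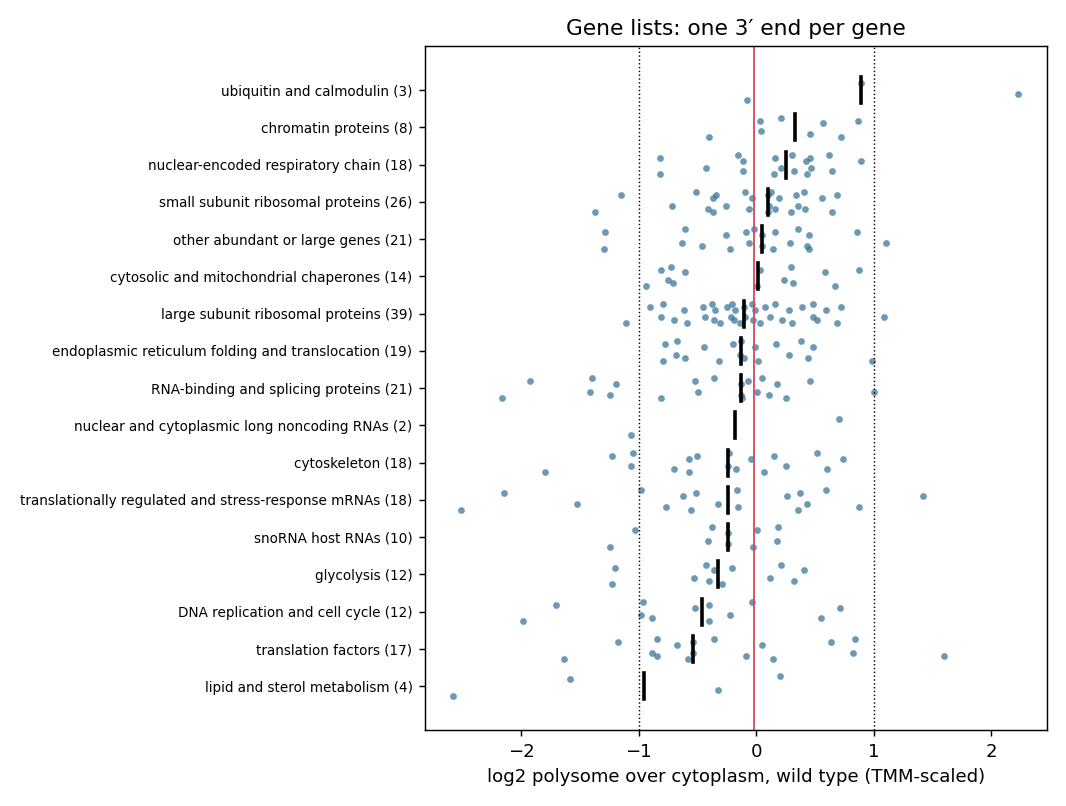
Log2 ratio of polysome over cytoplasm in the wild type (horizontal) for 1 site per gene, near a known gene end, in 17 gene lists. Points are genes, black bars list medians and numbers in brackets the measured genes. The red line is the nuclear median of -0.022 and dotted lines are 2-fold. List medians lie between -0.96 for lipid and sterol metabolism and 0.89 for ubiquitin and calmodulin, and the genes within each list spread much wider than the medians.

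Long noncoding RNAs are not translated by definition, but several that carry snoRNAs in their introns hold short reading frames and are known to be engaged by ribosomes. Among the snoRNA host RNAs 10 of 12 listed ends were measured, none rich and 2 poor, with a median of -0.24 (-1.04 to 0.18). SNHG6 had 262 and 128 reads at 8:-:67834224 and a log2 ratio of -1.24 (-1.56 to -0.93), and SNHG5 had 488 and 275 reads at 6:-:86386802 and -1.04 (-1.25 to -0.82). Both were below -1 in the knockout as well, SNHG6 at -1.15 and SNHG5 at -1.24.

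The other 8 lay within the middle of the nuclear distribution or near it. DANCR had 849 and 737 reads and a ratio of -0.41, and SNHG3 had 160 and 142 reads and -0.38. GAS5, a growth-arrest transcript with many intronic snoRNAs, had 805 and 785 reads at 1:-:173833040 and a ratio of -0.24 (-0.39 to -0.10). SNHG16 had 1322 and 1291 reads at 17:+:74561429 and also -0.24. EPB41L4A-AS1 was at -0.024 from 323 and 367 reads, and SNHG8 at 0.0052 from 176 and 204 reads. SNHG7 (0.18, from 217 and 283 reads) and SNHG1 (0.18, from 177 and 232 reads) were the highest of these hosts. After scaling, 8 of the 10 hosts had polysomal and cytoplasmic levels within 1.5-fold of each other. Most nuclear sites did so too: of all 4918, 595 were at least 1.5-fold higher in polysomes and 738 at least 1.5-fold lower. The count is therefore not particular to these hosts.

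Only 2 of 9 other listed long noncoding RNAs passed the minimum. NEAT1, the architectural RNA of nuclear paraspeckles, was read at the end of its short isoform at 11:+:65193996 with 189 and 104 reads, a ratio of -1.07 (-1.43 to -0.72), and 591 and 221 reads in the knockout, a ratio of -1.72. TUG1 had 131 and 247 reads at 22:+:31374829, a ratio of 0.71 (0.40 to 1.02), and 225 and 422 reads in the knockout, a ratio of 0.60. The counting intervals of the 2 RNAs did not overlap in the wild type. MALAT1, a nuclear RNA, had 2 and 6 reads at the site nearest its end and was not compared.

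Mitochondrial 3' ends were the class that stood furthest from the nuclear sites. All 17 minus-strand sites were poor, with a median log2 ratio of -3.08 (-3.38 to -2.36). Of the 42 plus-strand sites 25 were poor and none was rich, with a median of -1.51 (-1.99 to -0.78). The minimum in polysomes leaves out the most depleted sites: over 183 plus-strand sites with 50 reads in either library the median was -3.15. The median of the same plus-strand sites was -2.08 in the knockout, and that of the minus-strand sites -2.62. The plus strand took 10.4% of cytoplasmic and 4.28% of polysomal reads, and the minus strand 7.90% and 0.98%. How mitochondria and their ribosomes were distributed over the 2 fractions was not measured.

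The 2 ribosomal RNAs gave the lowest group of plus-strand values. The 8 sites in RNR1 and RNR2 ranged from -4.44 to -3.46, with a median of -3.93 and a knockout range of -4.05 to -3.35. The annotated end of RNR2, the large ribosomal RNA, at position 3230 had 5287 cytoplasmic and 464 polysomal reads and a ratio of -3.72. Sites inside RNR2 at 1762 (1091 and 58 reads, -4.44), 3043 (3316 and 214 reads, -4.16), 3128 (788 and 52 reads, -4.13), 2405 (945 and 70 reads, -3.96) and 2370 (3160 and 246 reads, -3.89) were among the 6 lowest of the plus strand. The end of RNR1 had 632 and 33 reads and so fell below the minimum.

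The annotated gene ends of mitochondrial mRNAs were less depleted than the ribosomal RNAs, and 5 of the 6 measured within 15 nt of such an end were poor. The annotated end of ND5 had only 24 and 19 reads. The site at 14746, downstream of ND5, had a ratio of 0.43, is not counted among the 6 and is described below. The end of CO3, which encodes a core subunit of cytochrome c oxidase, was the most abundant at position 9991 with 97271 and 46311 reads and a ratio of -1.28. The joint end of ATP8 and ATP6, at 9206, had 74020 and 22502 reads and a ratio of -1.93. The joint end of ND4L and ND4, subunits of complex I, had 25607 and 9707 reads at 12138 and a ratio of -1.61, while the knockout value was -2.52. ND3 (12742 and 3243 reads at 10405, -2.18) and ND2 (10794 and 3142 reads at 5512, -1.99) were the lowest of the mRNA ends. CYB, the end of cytochrome b at 15888, was the highest of the 6 at -0.68 from 20171 and 14529 reads. The counting intervals of these 6 ends are at most 0.12 wide, and only those of ND2 and of ATP8 and ATP6 overlap. The highest and the lowest of the 6 differ by 1.50.

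Downstream of ND5 lay the only 1 of the 10 most abundant plus-strand ends that was higher in polysomes. The site at 14746, past the stretch that lies antisense to ND6 and just before CYB, had 7606 cytoplasmic and 11803 polysomal reads and a log2 ratio of 0.43 (0.38 to 0.47). In the knockout it had 10112 and 16010 reads and a ratio of 0.36. The 9 sites inside ND5 and in this downstream stretch ranged from -0.78 to 0.43, with none poor. Among plus-strand sites with 200 or more summed reads, those at 14191 (132 and 164 reads, 0.11), 13993 (295 and 290 reads, -0.23), 14479 (207 and 203 reads, -0.24) and 14683 (308 and 265 reads, -0.42) were among the 6 highest, as was a site inside CYB at 15780 (120 and 147 reads, 0.085). The 6 sites inside CYB, upstream of its end, ranged from -1.22 to 0.19. A small site inside the tRNA-Thr gene at 15947 had 54 and 101 reads and a ratio of 0.70 (0.20 to 1.20), the highest of all plus-strand members. In the knockout it had 102 and 123 reads and a ratio of -0.034.

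Sites inside CO1 were lower again, 6 of 7 being poor, with a range of -2.69 to -0.92. The site at 5900, at the start of CO1, was at -3.82 from 2388 and 195 reads, near the ribosomal RNA values, and a site inside the ND4L and ND4 gene at 10706 was at -4.02 from 1351 and 96 reads. Within 1 strand of 1 small genome the ratios thus covered 5.14 log2 units, from -4.44 to 0.70, wider than the interval of any of these sites. The annotated ends of ND1 and CO1 had no listed site within 15 nt, and that of CO2 had 20 and 10 reads.

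On the minus strand 8 sites lay in the control region, which holds the promoters, and they took 7.23% of all cytoplasmic reads but 0.82% of polysomal reads. A single site at position 219 made up most of it, with 188306 cytoplasmic and 20919 polysomal reads and a ratio of -3.38. It was the most abundant site of the cytoplasmic library, 6.48% of its reads, and took 2.70% of the reads of the knockout cytoplasm. The lowest minus-strand values were at 360 (4074 and 288 reads, -4.03), 80 (5512 and 496 reads, -3.68) and 246 (2376 and 217 reads, -3.66). Just upstream of the minus-strand tRNA genes for Gln, Ser, Glu and Pro, 4 sites ranged from -3.04 to -2.36. The highest minus-strand values were at 13231 (170 and 79 reads, -1.31), 3250 (1655 and 606 reads, -1.66) and 13631 (278 and 68 reads, -2.24), and all were poor. In the knockout the 3 stood at -0.35, -1.41 and -1.08.

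**Figure D4:**
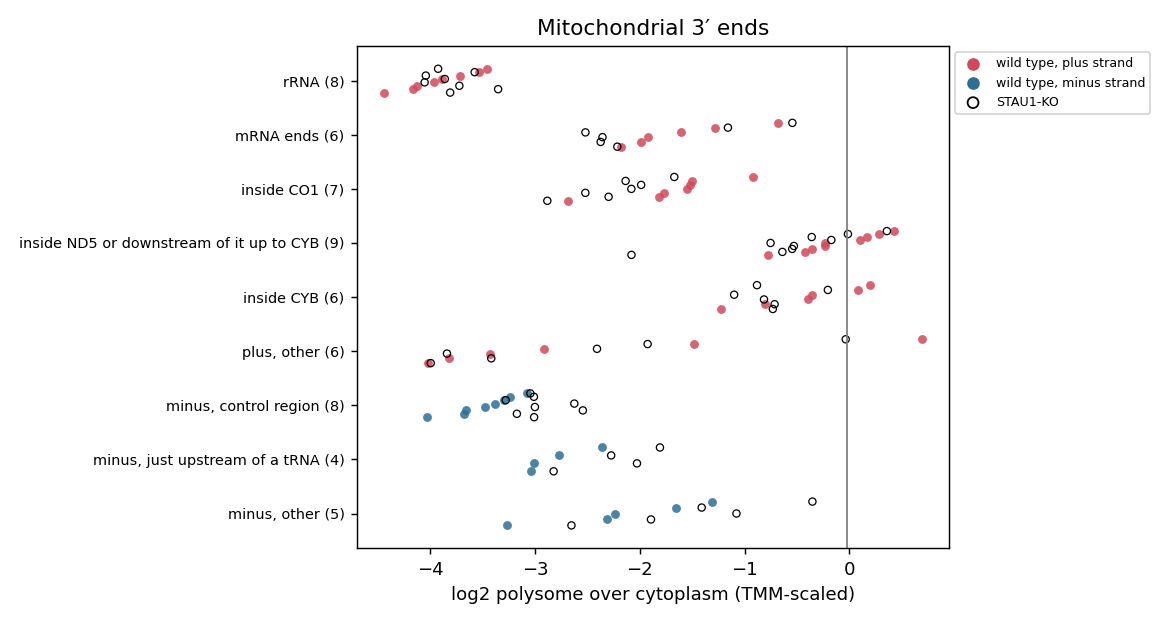
Log2 ratio of polysome over cytoplasm (horizontal) for mitochondrial sites by gene or region, filled points for the wild type (red plus strand, blue minus strand) and open circles for the STAU1-KO; the grey line is the nuclear median and brackets give the number of sites. Ribosomal RNA sites lie between -4.44 and -3.46, sites at annotated mRNA gene ends between -2.18 and -0.68, and sites in or downstream of ND5 between -0.78 and 0.43.

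Where a run of nuclear sites on a strand held at least 2 sites with 20 or more reads in each wild-type library, no gap above 5000 nt between neighbours and at least 100 nt between the pair, the 2 with most reads were compared as proximal and distal. Their difference in log2 ratio does not depend on the scaling. Over 1094 pairs the median distal-minus-proximal shift was 0.082 (0.033 to 0.13), 597 pairs being above 0 and 495 below. A shift of 2-fold or more towards the distal site was seen in 94 pairs, 8.59%, and towards the proximal site in 63 pairs, 5.76%. Of the 94, 82 were also above 0 in the knockout, against 54.2% of all pairs, and of the 63, 49 were also below 0 there, against 45.6%. Not every pair is 1 gene, since the table names no genes and close neighbours can fall into 1 run.

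The 260 pairs up to 300 nt apart had a median of -0.060 (-0.13 to 0.055). The 326 pairs from there to 1000 nt had 0.12 (0.045 to 0.22), the 352 pairs to 3000 nt had 0.14 (0.033 to 0.24), and the 156 longer pairs had 0.081 (-0.078 to 0.24). The 4 intervals overlap, and only the 2 middle ones lie clear of 0.

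Pairs are described only where each of the 4 wild-type counts was at least 50. Among these SSR3, a subunit of the translocon-associated complex, gave the largest distal shift between ends named for 1 gene, 1.95 (1.65 to 2.25). Its proximal end at 3:-:156260796 had 1186 and 760 reads, and its distal end, 2859 nt further at 156257937, had 154 and 382. The proximal site thus lay at -0.85 and the distal site was rich at 1.10, and the knockout shift was 1.34. GPI, a glycolytic isomerase, followed with a shift of 1.77 between 19:+:34891232 (1415 and 552 reads) and 34893318 (96 and 128 reads). BUB3, a spindle checkpoint protein, had a shift of 1.69 between 10:+:124923532 (295 and 141 reads) and 124924879 (221 and 341 reads), and PGRMC2 of 1.62 between 4:-:129192054 (111 and 95 reads) and 129191299 (180 and 475 reads). Knockout shifts were 1.43 for GPI, 0.58 for BUB3 and 1.64 for PGRMC2, all in the same direction.

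The largest distal shift of all, 2.29, was not an isoform pair: its proximal site at 16:-:70286294 (327 and 102 reads) is the end of AARS1, the alanyl-tRNA synthetase, and its distal site at 70284134 (137 and 209 reads) the end of the next gene, EXOSC6, a subunit of the RNA exosome. An unnamed pair at 8:-:145754563 (164 and 111 reads) and 145751604 (72 and 152 reads) had a shift of 1.64. It may also join neighbouring genes, which was not determined.

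NCL had the largest proximal shift among pairs with these reads, -1.97 (-2.13 to -1.81). Its proximal end at 2:-:232319619 had 796 and 801 reads, a ratio of -0.20, while its main end 159 nt further had 6321 and 1627 reads and -2.17. The 2 ends of NCL therefore lay on opposite sides of the poor limit, and the knockout shift was -1.70 from 966 and 1037 reads at the proximal and 6657 and 2202 at the distal end. SRP14, a protein of the signal recognition particle, had a shift of -1.42 between 15:-:40328243 (369 and 878 reads), which was rich at 1.04, and 40327943 (364 and 323 reads). ANP32B, an acidic nuclear phosphoprotein, had -1.41 between 9:+:100778099 (256 and 264 reads) and 100778222 (395 and 153 reads).

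FOXC1, a forkhead transcription factor, had a shift of -1.33 between 6:+:1613055 (69 and 123 reads) and 1614127 (279 and 198 reads). RER1, a Golgi protein that retrieves membrane proteins to the endoplasmic reticulum, had -1.27 between 1:+:2334659 (240 and 369 reads) and 2335188 (174 and 111 reads). ANKLE2 had -1.26 between 12:-:133303719 (79 and 132 reads) and 133302255 (410 and 286 reads). Knockout shifts were -0.91 for SRP14, -0.24 for ANP32B, -0.50 for FOXC1 and -0.68 for ANKLE2, while RER1 had 0.33, the opposite direction.

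**Figure D5:**
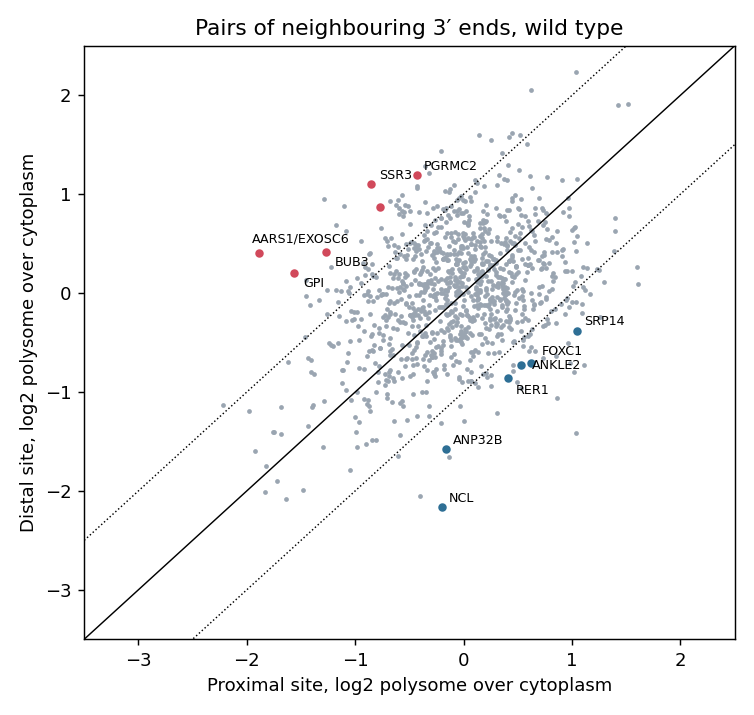
Log2 ratio of polysome over cytoplasm at the distal site (vertical) against the proximal site (horizontal) for 1094 pairs of neighbouring nuclear sites in the wild type; the solid line marks equal ratios and dotted lines a 2-fold shift. Among pairs with at least 50 reads in each count, red points are the 6 with the largest shift to the distal site (1.62 to 2.29) and blue points the 6 with the largest shift to the proximal site (-1.97 to -1.26); unmarked pairs as far out have fewer reads.

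Medians of nuclear sites differed little with position and depth. Among nuclear members the 547 most distal sites of a run had a median of 0.064 (0.012 to 0.12) and the 547 most proximal sites -0.026 (-0.069 to 0.030), and their intervals overlap. The 3715 sites alone in their run had -0.033 and the 109 middle sites -0.087. Poor sites were 5.60% of the lone sites, 2.93% of the most distal and 3.47% of the most proximal sites, a description with no test. Plus-strand and minus-strand nuclear sites had medians of -0.021 and -0.025.

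With the sites split by summed reads into 4 groups of like size, the median ran from -0.083 (-0.11 to -0.050) in the lowest group to 0.033 (-0.0044 to 0.069) in the highest. Those intervals do not overlap, though the medians are close beside the spread over sites. Rich and poor sites were fewest in the lowest group, at 0.482% and 2.01%, where a minimum of 50 reads in each library leaves little room for a large ratio. Chromosome 21 had the lowest chromosome median, -0.22 (-0.51 to 0.094) over 53 sites with 6 poor and none rich, and chromosome 18 the highest, 0.11 (-0.21 to 0.34) over 51 sites; both intervals include the nuclear median.

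The minimum of 50 reads in both libraries removes the most lopsided sites, 661 with enough reads in cytoplasm only and 870 with enough in polysomes only. Nuclear sites just inside it, with 50 to 59 reads in the smaller library, had a median of -0.024 over 569 sites, and those just outside, with 40 to 49 reads, had -0.040 over 686 sites (both with a pseudocount of 0.5). A few named ends outside the minimum, chosen after their values were seen, show what it leaves out. DYNC1H1, the dynein heavy chain, had 300 and 45 reads at 14:+:102517128, a ratio of -2.94, and PRKDC, the catalytic subunit of DNA-dependent protein kinase, had 159 and 23 reads and -3.00. RN7SL1, the RNA of the signal recognition particle, had 65 and 4 reads and a ratio of -4.23 (-6.15 to -2.80). At the other end ITM2C, a membrane protein, had 16 and 192 reads at 2:+:231743962 and 3.38 (2.64 to 4.21). All 4 had the same sign in the knockout, from -3.16 to 3.26.

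The knockout libraries share no sample with the wild-type libraries and repeat the polysome-to-cytoplasm comparison in another clone. The wild-type minimum was met in both knockout libraries by 4709 of the nuclear members. Across those sites the ratios of the genotypes had a Pearson r of 0.75 and a Spearman rho of 0.71, as a description over sites that share the libraries' depth. Of the 120 rich sites among them 115 were above 0 in the knockout and 26 were rich there, where 51.4% of all 4709 sites were above 0 and 1.76% rich. Of the 240 poor sites 238 were below 0 in the knockout and 122 were poor there, against 48.6% and 3.86% of all sites. The SD of the ratio over these sites was 0.57 in the wild type and 0.52 in the knockout, and the SD of the difference was 0.39, and genotype, clone and library cannot be told apart in it.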

How the data were processed

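RNA from 4 fractions of HEK293T cells was sequenced by 3'READS+. The submitters' processing notes name STAR and hg19; aligner version, settings and site clustering are not stated in the sources at hand. The authors deposited raw read counts for each poly(A) site. Library sizes were scaled by TMM in edgeR 4.0.16 (R 4.3.3), used for scaling only, since 1 library per group allows no test. Ratios, exact counting intervals and order-statistic intervals of medians were computed in Python 3.11.15 with SciPy 1.17.1 and tested on simulated data. PCR reads are not independent molecules, so intervals cover counting error only. The deposited table names no genes. Names come from hg19 gene ends known in advance to within 0.1 kb, matched to the best-read site within 150 nt (60 nt for 97 ends added after values were seen), and checked for chromosome and order against RefSeq (GRCh38.p14). Of 322 listed ends 214 had a member site, and some genes are not reported here and were left out of the lists. Members and lists were chosen with earlier results of these data known. Named sites are the 15 highest and lowest nuclear ratios with 200 or more summed reads, the 15 most abundant, set numbers of mitochondrial sites, the 2 highest and lowest of each list, noncoding RNAs, and 6 pairs a direction with 50 or more reads per count; others were picked from the fixed lists. Alternatives were other scalings, minima, folds, pair rules and summed sites.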

Additional observations from a re-analysis of the deposited data

Results flagged for a closer look

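At 312 named or listed sites the 2 genotypes were set side by side, and 18 had counting intervals on opposite sides of 0 in the wild type and the knockout with TMM. For 6 of these the opposite signs held with each of 4 scalings. The difference itself was not tested, since each genotype has 1 library per fraction. The same share over all nuclear sites is not given here, so the count of 18 does not show whether these sites are unusual. RPL13A, of the large ribosomal subunit, stood at 0.39 (0.29 to 0.50) in the wild type and -0.57 (-0.66 to -0.48) in the knockout. TPI1, a glycolytic enzyme, stood at 0.40 and -0.27, and the protein disulfide isomerase PDIA3 at 0.28 and -0.40. RPS15A, of the small subunit, stood at 0.11 and -0.43, and the tubulin TUBA1B at 0.066 and -0.28. PDIA4, another disulfide isomerase, had the opposite signs, -0.60 (-0.73 to -0.48) in the wild type and 0.25 (0.13 to 0.38) in the knockout. None of the 6 was rich or poor in either genotype.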

How the results depend on the processing

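No paired analysis was possible because each group has 1 library and no test was made. With library totals the rich count was 349 and the poor count 131, against 121 and 245, and the nuclear median 0.24. With nuclear totals that median was 0.025, and with 50 reads in either library 0.021, so its sign is not fixed. RLE and TMM over the wild-type libraries alone moved every ratio by 0.0091 and 0.012. Rich and poor counts were 287 and 508 with 20 reads in both (8472 sites), 22 and 63 with 200 reads (1660 sites), 327 and 472 with 50 reads in either (6252 sites), and 595 and 738 at 1.5-fold; more or fewer sites or a lower fold enter each. The plus-strand mitochondrial median was -3.15 over 183 sites with 50 reads in either library. Pairs shifted 2-fold numbered 55 of 455 with 50 reads, against 157 of 1094. With only the ends written first, the long noncoding list, then NEAT1 alone, moved from -0.16 to -1.05 relative to the nuclear median. The other 185 values for counts, medians, lists and pairs stayed within their interval or, for counts and for lists too short for an interval, within 1.5 times. Many list intervals are wide, so a median inside its interval can still change sign. The chaperone median relative to the nuclear median was 0.041 as reported. It was -0.60 with 200 reads in both libraries and -0.21 with summed sites. Of 76 named sites past 2-fold none changed direction under a scaling, and 13 stood under 2-fold with at least 1. Depth limits single sites with few reads, and 1 library per group leaves library error unmeasured.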
